A study of Mus musculus with 2 samples.

Results

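St6gal1 and 7 other genes of sialic acid metabolism were followed in a map of TCF12 binding in CH12.LX, an immortalised mouse B-cell lymphoma line. The 8 genes are St6gal1, St3gal1, St3gal2, St3gal6, St8sia4, Cmah, Cmas and Siglecg, taken from 20923 protein-coding genes. They were chosen because one of the strongest peaks of the whole map lies inside St6gal1, so their counts and signals are a description and carry no test. A gene's window ran from 10 kb upstream of its annotated 5′ end to its 3′ end, and a peak belonged to the window that held its summit. The 8 windows held 92 of the 35848 peaks of the optimal list, the authors' list of peaks that pass the irreproducible discovery rate (IDR) step.

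Binding was read by ChIP-seq, the sequencing of DNA that comes down with an antibody, here to TCF12, in 2 biological replicates that form 1 group. The labels give the strain as B10.H-2aH-4bp/Wts and name no treatment, time or counterpart group, so nothing here compares conditions. Both replicates come from 1 line, and the labels place them under 1 donor with separate biosample records. A control alignment entered the peak calls but was not analysed here, and read depth is unknown. The signal of a peak is the authors' own value in their caller's units. It was computed on both replicates pooled unless a replicate is named. Peaks lay in all 7 of the B-cell marker genes examined (63 peaks) and in 4 of the 5 T-cell marker genes (8 peaks), and a peak at a gene is not a measure of its expression.

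TCF12, also known as HEB, is a basic helix-loop-helix protein of the E protein family, which binds E-boxes, DNA sites of the form CANNTG. Sialic acids are acidic sugars that cap the outer ends of glycans on proteins and lipids. CMAS activates sialic acid by joining it to CMP, and CMAH turns the activated N-acetyl form into the N-glycolyl form. Sialyltransferases of the Golgi then add the sugar in a fixed linkage. On B cells, α2,6-linked sialic acid made by ST6GAL1 is the ligand of the inhibitory lectin CD22, and Siglec-G is a second inhibitory lectin of the B-cell surface.

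The sequences below show the DNA under the strongest summits, since those peaks carry most of what follows. First come the 4 strongest St6gal1 peaks of the authors' mm9 list, the only list for which genome sequence was used here (NCBIM37, plus strand, 50 bp to either side of the summit). All 4 lie in introns of St6gal1 as GENCODE vM1 annotates it. Capitals mark CAGCTG or CACCTG on either strand (CAGGTG is CACCTG on the other strand), TGANTCA, the motif of the AP-1 family, and TGTGGTT, the motif of the RUNX family, which reads AACCACA on the other strand.
St6gal1, chr16:23301976-23302076: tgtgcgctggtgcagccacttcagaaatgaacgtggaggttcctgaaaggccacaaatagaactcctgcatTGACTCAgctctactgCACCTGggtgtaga
St6gal1, chr16:23286728-23286828: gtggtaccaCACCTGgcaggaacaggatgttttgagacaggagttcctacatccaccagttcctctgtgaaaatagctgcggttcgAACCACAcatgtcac
St6gal1, chr16:23280131-23280231: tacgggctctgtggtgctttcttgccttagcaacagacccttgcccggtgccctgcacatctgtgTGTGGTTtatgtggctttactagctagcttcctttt
St6gal1, chr16:23284963-23285063: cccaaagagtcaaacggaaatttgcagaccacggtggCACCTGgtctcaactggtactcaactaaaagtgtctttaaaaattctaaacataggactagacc

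The next 3 windows, on the same build and strand with the same marks, lie under the strongest intron peaks of St3gal2, St3gal6 and St8sia4. They are shown because each holds CAGCTG or CACCTG together with TGANTCA, as the first St6gal1 window does.
St3gal2, chr8:113478804-113478904: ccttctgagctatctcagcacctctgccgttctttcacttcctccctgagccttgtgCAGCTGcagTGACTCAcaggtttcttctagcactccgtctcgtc
St3gal6, chr16:58498690-58498790: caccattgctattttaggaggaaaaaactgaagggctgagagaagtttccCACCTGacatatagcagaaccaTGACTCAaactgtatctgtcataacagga
St8sia4, chr1:97505808-97505908: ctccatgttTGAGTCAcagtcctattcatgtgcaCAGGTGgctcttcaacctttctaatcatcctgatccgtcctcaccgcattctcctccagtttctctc

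Promoters are shown for St8sia4 and Cmas, whose strongest peaks lie at their 5′ ends. Each runs from 250 bases before to 50 bases after a RefSeq transcript start on GRCm38.p6, in the direction of transcription, with the same marks. Such a stretch is wider than the summit windows, and a mark in it need not lie near the summit. RefSeq promoters were matched for 6 of the 8 genes, with 11 starts between them.
St8sia4, chr1:95667545-95667844, minus strand: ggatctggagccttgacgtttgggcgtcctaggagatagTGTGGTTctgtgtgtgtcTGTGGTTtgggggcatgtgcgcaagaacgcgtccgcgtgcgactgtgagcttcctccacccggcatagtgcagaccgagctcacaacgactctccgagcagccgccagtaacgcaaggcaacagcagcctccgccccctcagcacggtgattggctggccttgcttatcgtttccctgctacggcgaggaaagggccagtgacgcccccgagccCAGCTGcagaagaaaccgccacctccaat
Cmas, chr6:142756436-142756735, plus strand: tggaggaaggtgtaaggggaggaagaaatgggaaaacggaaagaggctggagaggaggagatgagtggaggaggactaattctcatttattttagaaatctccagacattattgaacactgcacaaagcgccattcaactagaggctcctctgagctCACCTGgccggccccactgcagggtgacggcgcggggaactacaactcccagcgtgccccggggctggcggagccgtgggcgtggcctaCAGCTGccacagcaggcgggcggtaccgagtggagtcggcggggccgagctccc

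St6gal1, the α2,6-sialyltransferase of N-glycans, held 29 of the 92 peaks. The gene spans 136 kb of mm10 chromosome 16 (chr16:23224729-23360350, plus strand). Of all 20923 genes, 57.2% had at least 1 optimal peak in their window, a share of 67.6% among genes spanning 10 to 150 kb, and the median gene had 1 peak. The number in St6gal1 ranked 13 among all genes, and its density was 19.9 peaks per 100 kb of window. After overlapping peaks were counted once, 27 remained. The relaxed lists, which the authors called with background included, held 92 peaks of this window in replicate 1 and 89 in replicate 2.

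The strongest of the 29 lay 77.2 kb downstream of the 5′ end (chr16:23301785-23302112 on mm10). Its signal was 450, with 250 in replicate 1 and 196 in replicate 2. It ranked 7 among all optimal peaks, and the peaks just above and below it in that order, with signals of 452 and 417, lay nearest to Adgrl2 and Cbfa2t3. In the replicates' own relaxed lists it ranked 5 and 7. The second peak, 62.0 kb downstream, had a signal of 216, with 141 and 76.7 in replicates 1 and 2. Another, 55.4 kb downstream, had a signal of 153, with 81.0 and 71.4.

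Next came peaks at 60.2 kb (pooled signal 126, with 57.7 and 67.1 in replicates 1 and 2) and 88.1 kb (pooled signal 125, with 61.3 and 64.8). The strongest and second peaks kept their places in both replicates. The peak at 88.1 kb was ahead of that at 60.2 kb in replicate 1 and behind it in replicate 2, and both were higher in replicate 2, against the direction of most peaks. These 5 peaks were the only ones of the gene with a signal of at least 100, a level that at least 1 peak reached in the windows of 11.2% of all genes. They held 52.3% of the summed signal of the window. A broader stretch from 40 to 90 kb held 19 of the 29 peaks and 83.8% of the summed signal.

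**Figure D1:**
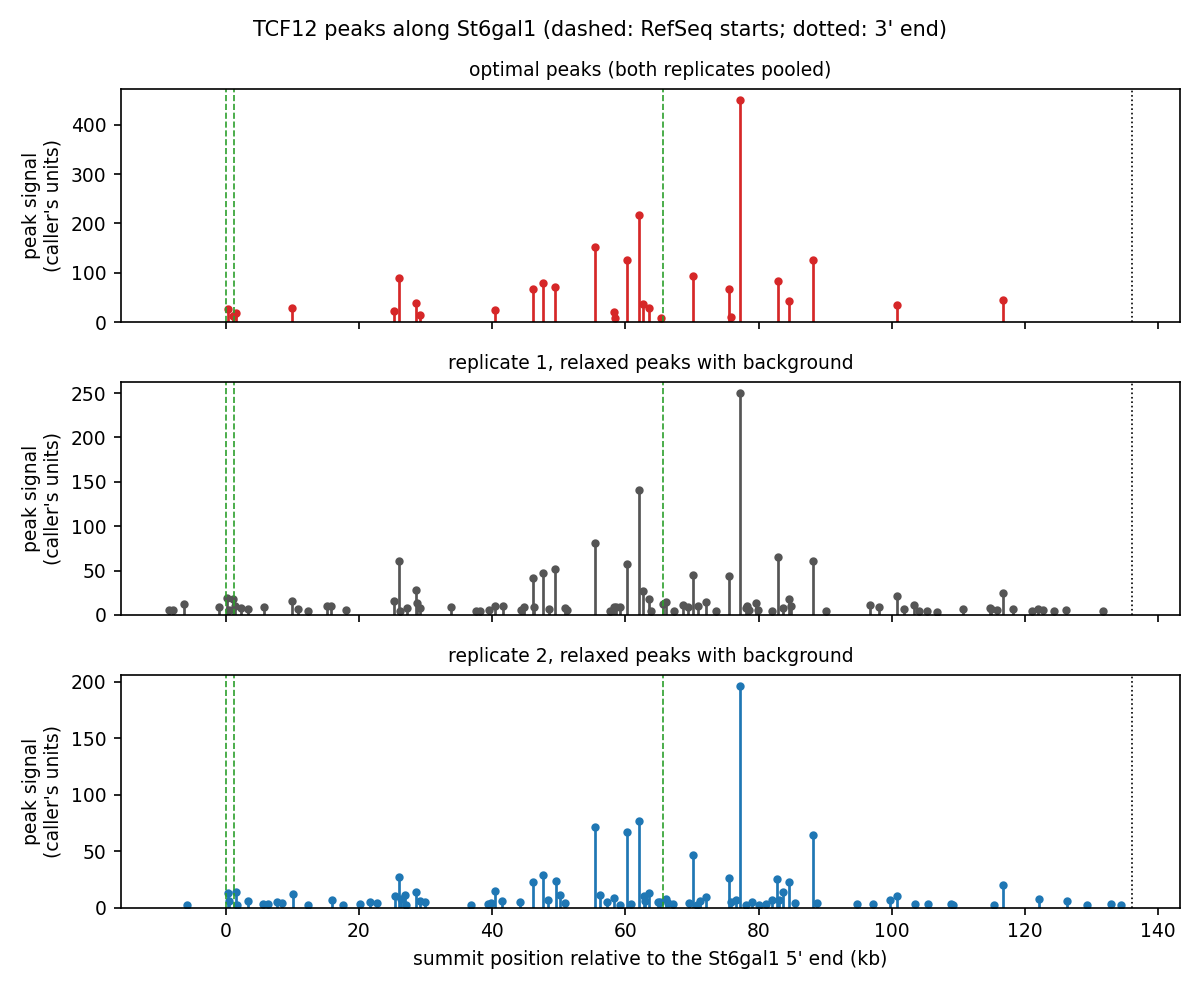
Peak signal (vertical axis, caller's units, from 0) against the distance of each summit from the St6gal1 5′ end (horizontal axis, kb) in the optimal list, replicate 1 and replicate 2. Dashed lines mark RefSeq transcript starts and the dotted line the 3′ end; the peak at 77.2 kb is the highest in all 3 panels, and most signal lies between 40 and 90 kb.

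Peaks near the transcript starts of St6gal1 were weak by comparison. The peak 301 bp past the 5′ end had a signal of 26.5, with 18.9 in replicate 1 and 13.1 in replicate 2. Another at 1.05 kb had a signal of 13.3 and was in the relaxed list of replicate 1 alone, at 17.7. It was the 1 peak of the 92 that was missing from a replicate. RefSeq gives a further start at 1.29 kb, and the nearest summit lay 197 bp past it. That peak had a signal of 18.2, with 9.60 in replicate 1 and 14.0 in replicate 2. Another start lies 65.7 kb inside the gene, and the nearest summit lay 337 bp upstream of it with a signal of 8.75, the lowest of the 29. BC106179, a long noncoding RNA gene on the opposite strand, starts 294 bp from the summit of the peak at 1.05 kb. No peak lay between the 5′ end and 10 kb upstream, and the nearest one outside that window was only 0.205 kb beyond it, with a signal of 28.9. Relaxed pooled peaks of the window that stayed outside the optimal list reached 23.3, so weak peaks on either side of the list overlap in signal.

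In the mm9 list 19 peaks lay in the St6gal1 window, all of them in introns. The strongest again ranked 7, of 23575, with an mm9 signal of 1146, a value on that list's own scale. Of the 19, 11 held CAGCTG or CACCTG in the window around the summit. CACCTG was in 7 and CAGCTG in 4. Over all mm9 peaks 31.0% held 1 of these E-boxes, and over mm9 peaks in introns 40.7% did. The window around the St6gal1 summit 55.4 kb inside, printed above, holds neither form but has another CANNTG and TGTGGTT.

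Among the other sialyltransferases, St3gal6 had the most peaks. ST3GAL6 adds α2,3-linked sialic acid to galactose and takes part in making selectin ligands. Its window on chromosome 16 (gene chr16:58469742-58524260, minus strand) held 18 optimal peaks, or 14 with overlapping peaks counted once, and 27.9 peaks per 100 kb, the highest density of the 8 genes. The strongest, 25.6 kb inside the gene (chr16:58498508-58498747), had a signal of 221, with 140 in replicate 1 and 83.6 in replicate 2. A second, 22.3 kb inside, had a signal of 143, with 95.8 and 46.5. It overlaps an optimal peak with a signal of 80.5, and both were matched to the same replicate peaks. The median of the 18 was 24.9, below the median of 35.0 over all optimal peaks. Within 1 kb of its 5′ end lay 4 peaks, the strongest at 981 bp with a signal of 65.8, from 35.1 and 31.7 in replicates 1 and 2. These 4 overlap in pairs, and each pair was matched to the same replicate peaks. Near the 3′ end a peak of signal 78.8, with 47.5 and 33.4, lay 887 bp from a start of Gm33475, a long noncoding RNA gene.

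St3gal1 encodes the enzyme that adds α2,3-linked sialic acid to core O-glycans. Its window (gene chr15:67102875-67176946, minus strand) held 12 peaks. The strongest, 31.4 kb inside the gene (chr15:67145426-67145611), had a signal of 184, with 115 in replicate 1 and 71.3 in replicate 2. A peak 36 bp upstream of the 5′ end had a signal of 55.2, with 32.8 and 25.5. Another, 2.85 kb inside the gene, reached 92.2, with 59.1 and 39.7. All 3 were higher in replicate 1. As a ratio, the replicates stood furthest apart at a peak 60.6 kb inside the gene, with 35.5 in replicate 1 and 3.41 in replicate 2.

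St3gal2 encodes a related α2,3-sialyltransferase that acts on O-glycans and gangliosides. Its window (gene chr8:110919743-110974058, plus strand) held 9 peaks. The strongest, 35.2 kb inside the gene (chr8:110954876-110955053), had a signal of 173, with 98.6 in replicate 1 and 71.2 in replicate 2. The next, 9.60 kb inside, had a signal of 138, with 92.1 and 46.6. The peak at its 5′ end, 62 bp downstream, was weaker, with a signal of 57.5, from 42.3 and 19.5. In St3gal1, St3gal2 and St3gal6 alike the strongest peak lay over 10 kb inside the gene and was stronger, pooled and in both replicates, than every peak within 1 kb of the 5′ end.

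In pooled signal, St8sia4 showed another arrangement. It encodes a polysialyltransferase, which builds α2,8-linked sialic acid chains on carriers such as NCAM. Its window (gene chr1:95587682-95667717, minus strand) held 10 peaks, and the strongest lay at the 5′ end itself, 35 bp downstream (chr1:95667490-95667873). That peak had a signal of 119, with 85.5 in replicate 1 and 33.9 in replicate 2. It also lies 19 bp from the start of Gm30431, a long noncoding RNA gene that runs the other way. A second peak, 58.5 kb inside, had a signal of 110, with 61.2 and 51.5. The 5′ peak was thus ahead in replicate 1 and the inner peak in replicate 2, so their order was not repeated. In replicate 2 the 5′ peak was also behind further inner peaks, at 44.1, 42.6, 37.5 and 34.1. The median of the 10 peaks, 81.7, was the highest of the 8 genes, and 6 of the 10 had a signal of 79.6 or more.

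Cmas and Cmah act before transfer. Cmas spans 19.0 kb (chr6:142756686-142775714, plus strand) and had 3 peaks, at or upstream of its 5′ end. The strongest, 42 bp downstream of the 5′ end (chr6:142756536-142756919), had a signal of 61.6, with 39.3 in replicate 1 and 23.5 in replicate 2. LOC115490443, a long noncoding RNA gene, starts 580 bp from that summit. The others, 4.03 and 9.26 kb upstream, had signals of 36.9 and 22.9. The Cmas promoter above holds CACCTG 93 bases before the transcript start and CAGCTG 4 bases before it, as distances to the first base of the motif.

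Cmah spans 150 kb (chr13:24327404-24477289, plus strand) and had 10 peaks with no summit within 1 kb of its annotated 5′ end. The strongest, 71.3 kb inside (chr13:24398529-24398912), had a signal of 69.7, with 40.2 in replicate 1 and 29.7 in replicate 2. RefSeq also starts Cmah 87.7 kb inside this span. A peak of signal 52.4, with 38.8 and 16.5 in replicates 1 and 2, lay 88.3 kb inside (chr13:24415505-24415888), past that start. Of the 10 peaks, 9 lay at 65.4 kb or further inside. The tenth, at 10.8 kb, had the lowest signal, 8.67. Cmah had 6.25 peaks per 100 kb, the second lowest density of the 8 genes.

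Siglecg, the lectin gene, had a single weak peak. The gene is short, 10.2 kb (chr7:43408192-43418349, plus strand), and its peak 35 bp past the 5′ end (chr7:43408035-43408418) had a signal of 19.6, with 13.8 in replicate 1 and 14.0 in replicate 2. As many peaks or more were found in 57.2% of all genes. A stronger peak, of signal 116 (chr7:43392414-43392797), lay 5.59 kb beyond the upstream edge of the window, and Siglecg had the nearest protein-coding 5′ end to it. Widening the windows to 20 kb upstream therefore gave Siglecg 2 peaks and a strongest signal of 116. In the mm9 list no peak lay in the Siglecg window.

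**Figure D2:**
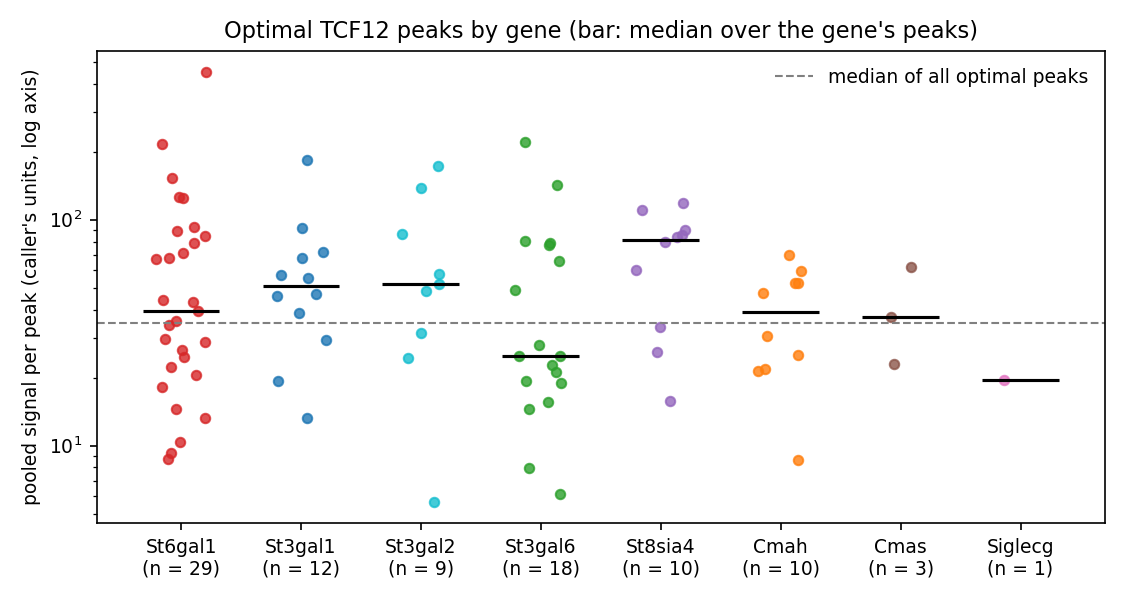
Pooled signal of every optimal peak (vertical axis, caller's units, log axis) in the windows of the 8 genes, with the median of each gene as a bar and the median of all optimal peaks, 35.0, as a dashed line. St6gal1 reaches 450 with a median of 39.3, and St8sia4 has the highest median, 81.7.

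Ordered by the highest signal in the pooled data, the genes ran St6gal1 (450), St3gal6 (221), St3gal1 (184), St3gal2 (173), St8sia4 (119), Cmah (69.7), Cmas (61.6) and Siglecg (19.6). The order was the same in each replicate alone. With 2 replicates, only the 2 values themselves show the spread. That spread includes a general offset, since replicate 1 was higher at 85.7% of all optimal peaks. St6gal1, at 250 and 196, stood clear of St3gal6, at 140 and 83.6. Taken across both replicates, the values of St3gal6, St3gal1 (115 and 71.3), St3gal2 (98.6 and 71.2) and St8sia4 (85.5 and 51.5) overlapped from each gene to the next. Within each replicate these genes kept their order, though St3gal1 and St3gal2 were nearly equal in replicate 2. Cmah (40.3 and 29.7) and Cmas (39.3 and 23.5) also overlapped across replicates, and both stood below St8sia4 and above Siglecg (13.8 and 14.0). These values are the highest of each window in each replicate, and in St8sia4 and Cmah the pair comes from different peaks. At the 5′ peak of St8sia4 alone, the values were 85.5 and 33.9, and the second lies below the replicate 1 values of Cmah and Cmas. In 5 of the 8 windows, those of the sialyltransferases, a peak reached a signal of at least 100, against 11.2% of all genes. Since the genes were chosen on these peaks, nothing is read from that count.

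Over the 92 peaks the median signal was 45.0, against 35.0 over all 35848 optimal peaks, with quartiles of 22.7 and 78.7, against 22.9 and 58.6. A signal of at least 100 was reached by 12 of the 92 (13.0%), against 9.02% of all optimal peaks. The positions differed more than the signals. Of the 92 summits, 10 (10.9%) lay within 1 kb of a protein-coding 5′ end, against 28.9% of all optimal peaks, and 67 (72.8%) lay over 10 kb from one, against 50.4%. A window that covers a long gene holds mostly inner positions by its construction. Another gene's 5′ end was the nearest for 7 of the peaks, that of Rtp1 for 1 in St6gal1 and that of Ripor2 for 6 in Cmah.

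Both replicates' relaxed lists held 91 of the 92 peaks. In St6gal1, St3gal2, St3gal6 and St8sia4 some neighbouring optimal peaks were matched to the same replicate peaks. The 91 are thus not all separate measurements. Replicate 1 had the higher signal at 77 of the 91 (84.6%), against 85.7% of all optimal peaks, and the median ratio of replicate 1 to replicate 2 was 1.53 (quartiles 1.26 and 2.28), against 1.66. This ratio was lowest in Siglecg (0.988 at its 1 peak) and highest in Cmah (median 2.34), with St6gal1 at 1.44. Among the 35530 strongest peaks of each replicate, the number in the authors' conservative list, both replicates overlapped 67 of the 92 (72.8%), against 71.0% of all optimal peaks. The strongest peaks of replicate 1 alone overlapped 11 more and those of replicate 2 alone 9 more, and 5 were overlapped by neither.

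**Figure D3:**
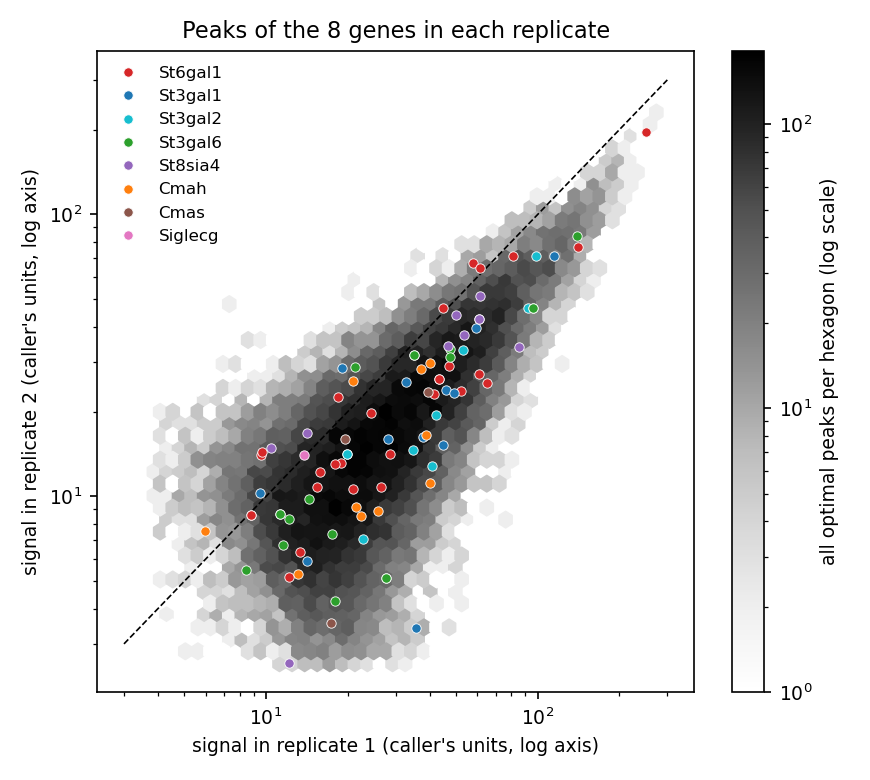
Signal of each peak in replicate 1 (horizontal axis) and replicate 2 (vertical axis), both in caller's units on log axes, with the peaks of the 8 genes as coloured points over all optimal peaks as grey hexagons. The dashed line marks equal signal. Of the 91 coloured points, 77 lie below it, and the strongest St6gal1 peak, at 250 and 196, is near the top of the whole map. Some points coincide, where neighbouring optimal peaks were matched to the same replicate peaks.

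Exons and introns were placed on the mm9 list, where 54 peaks lay in the windows of the 8 genes. Introns held 46 of them (85.2%), against 30.4% of all mm9 peaks, and promoters held 4 (7.41%), against 34.3%. The windows cover gene bodies and leave out most ground between genes, where 30.5% of all mm9 peaks lay. Nothing is therefore read from this contrast. A summit within 1 kb of a protein-coding 5′ end was placed as promoter even where it lay in an exon. The 1 peak placed as exon lay in a noncoding part of a St8sia4 exon. GENCODE vM1 annotates only 11.5 kb of St3gal1, where the mm10 table has 74.1 kb, and the mm9 window of that gene therefore held 1 peak.

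Of the 54 peaks, 22 held CAGCTG or CACCTG at most 50 bp from the summit (40.7%, 95% Wilson interval 28.7 to 54.0). Of all mm9 peaks 31.0% held 1 (30.4 to 31.6). Among intron peaks the shares were close, 43.5% of 46 in these genes and 40.7% in all. In windows of the same length centred 300 bp to either side of the summits, the share was 9.26% in these genes and 12.2% in all. Outside St6gal1 the counts were 3 of 9 in St3gal6, 3 of 8 in St8sia4, 2 of 7 in Cmah, 1 of 7 in St3gal2, 1 of 3 in Cmas and 1 of 1 in St3gal1.

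TGANTCA was in 11 of the 54 peaks (20.4%, interval 11.8 to 32.9), against 7.64% of all mm9 peaks (7.31 to 7.99). In introns it was in 10 of 46 (21.7%), against 10.7% of all intron peaks. St6gal1 held 5 of the 11. TGTGGTT was in 5 of the 54 (9.26%), against 4.72%, and the longer NF-kappaB motif was in 5 (9.26%), against 4.88%. The shorter NF-kappaB motif was in none of the 54, against 1.99% of all. The EBF1 motif and a control motif were also in none, against 1.15% and 0.407% of all. The PU.1 motif was in 1 (1.85%), against 3.13%. The octamer ATGCAAAT, the ETS motif CCGGAAGT, TGACGTCA and GGGCGGGG were in none of the 54, where a count of 0 of 54 gives an upper Wilson bound of 6.64%, and in 2.25%, 2.94%, 1.02% and 4.70% of all. Among all intron peaks, the place of 46 of the 54, the shares were 3.17%, 0.559%, 0.503% and 1.62% in the same order. Intervals treat neighbouring peaks as independent and cover counting error only.

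CAGCTG or CACCTG stood together with TGANTCA in these summit windows in 4 of the 54 peaks (7.41%), against 2.75% of all mm9 peaks and 6.10% of the 1000 strongest. Other CANNTG forms were not counted here. Each of the 4 was the strongest intron peak of its gene, in St6gal1, St3gal6, St3gal2 and St8sia4. The pair was separated by 9 bp in St6gal1 (TGACTCA at 23302047 to 23302053, CACCTG at 23302063 to 23302068), by 16 bp in St3gal6, by 3 bp in St3gal2 and by 18 bp in St8sia4. Of the 5 genes with an mm9 intron peak, Cmah alone had no such pair in its strongest one. St3gal1 is not among the 5, since its shortened mm9 window held only 1 peak, placed between genes. Over all genes with an mm9 intron peak, 3574 in number, 4.64% had the pair in the strongest, but those genes were not chosen on their peaks. This coincidence was noticed after the sequences were read, and a motif match says nothing about which protein bound.

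The promoters gave a mixed picture. CAGCTG or CACCTG is in 32.9% of 32851 RefSeq promoters of this length. Of the promoters overlapped by an optimal peak, those of St8sia4 and Cmas hold at least 1, while those of St6gal1, St3gal6 and Siglecg hold none. Both Cmah promoters hold at least 1 and are overlapped by no optimal peak. TGTGGTT, which appears in the St8sia4 promoter in a pair, is in 5.27% of all promoters.

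Sialic acid genes at large were described with a list of 43, all of them measured, that covers making, transfer, removal and recognition. Of these, 31 (72.1%) had an optimal peak, against 57.2% of all genes and 67.6% of genes spanning 10 to 150 kb. Their median span was 23.8 kb, against 17.4 kb over all genes. Without the 8 genes the count was 23 of 35 (65.7%), with a median of 1 peak, the same as over all genes. By role, a peak was present in 6 of 6 genes for making and activating sialic acid, 5 of 6 for α2,3 transfer, 7 of 8 for α2,6 transfer and 3 of 6 for α2,8 transfer. It was present in 6 of 8 genes for removing or altering sialic acid and in 4 of 9 lectin genes.

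Outside the 8 genes the strongest peak was that of Cd22, whose product binds the α2,6-linked ligand that ST6GAL1 makes. It lay 7.41 kb upstream (chr7:30887645-30887853) with a signal of 179, from 109 in replicate 1 and 72.4 in replicate 2. St6galnac5, a ganglioside α2,6-sialyltransferase gene, reached 140 at 52.2 kb inside (89.5 and 53.1). Nanp, the phosphatase gene of the last step of sialic acid synthesis, reached 107 at 19 bp upstream of its 5′ end (77.9 and 32.2). A peak of 93.4 in the Ctsa window, upstream of the gene for the protective protein of the lysosomal sialidase, had Zswim1 as its nearest 5′ end.

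Neu3, a plasma membrane sialidase gene, reached 82.2, and Slc35a1, the Golgi transporter gene for CMP-sialic acid, reached 78.7 at 761 bp past its 5′ end. Slc35a1 was higher in replicate 2, at 41.0, than in replicate 1, at 36.7. No optimal peak lay in the windows of St3gal4, St6galnac2, St8sia2, St8sia3, St8sia5 and Neu2, the first 6 genes without a peak in the order of the list. St8sia2, St8sia3 and St8sia5 encode other α2,8-sialyltransferases, so 3 of the 5 relatives of St8sia4 had no peak. The remaining relatives, St8sia1 and St8sia6, had 5 peaks each. Over all genes 57.2% had a peak.

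**Figure D4:**
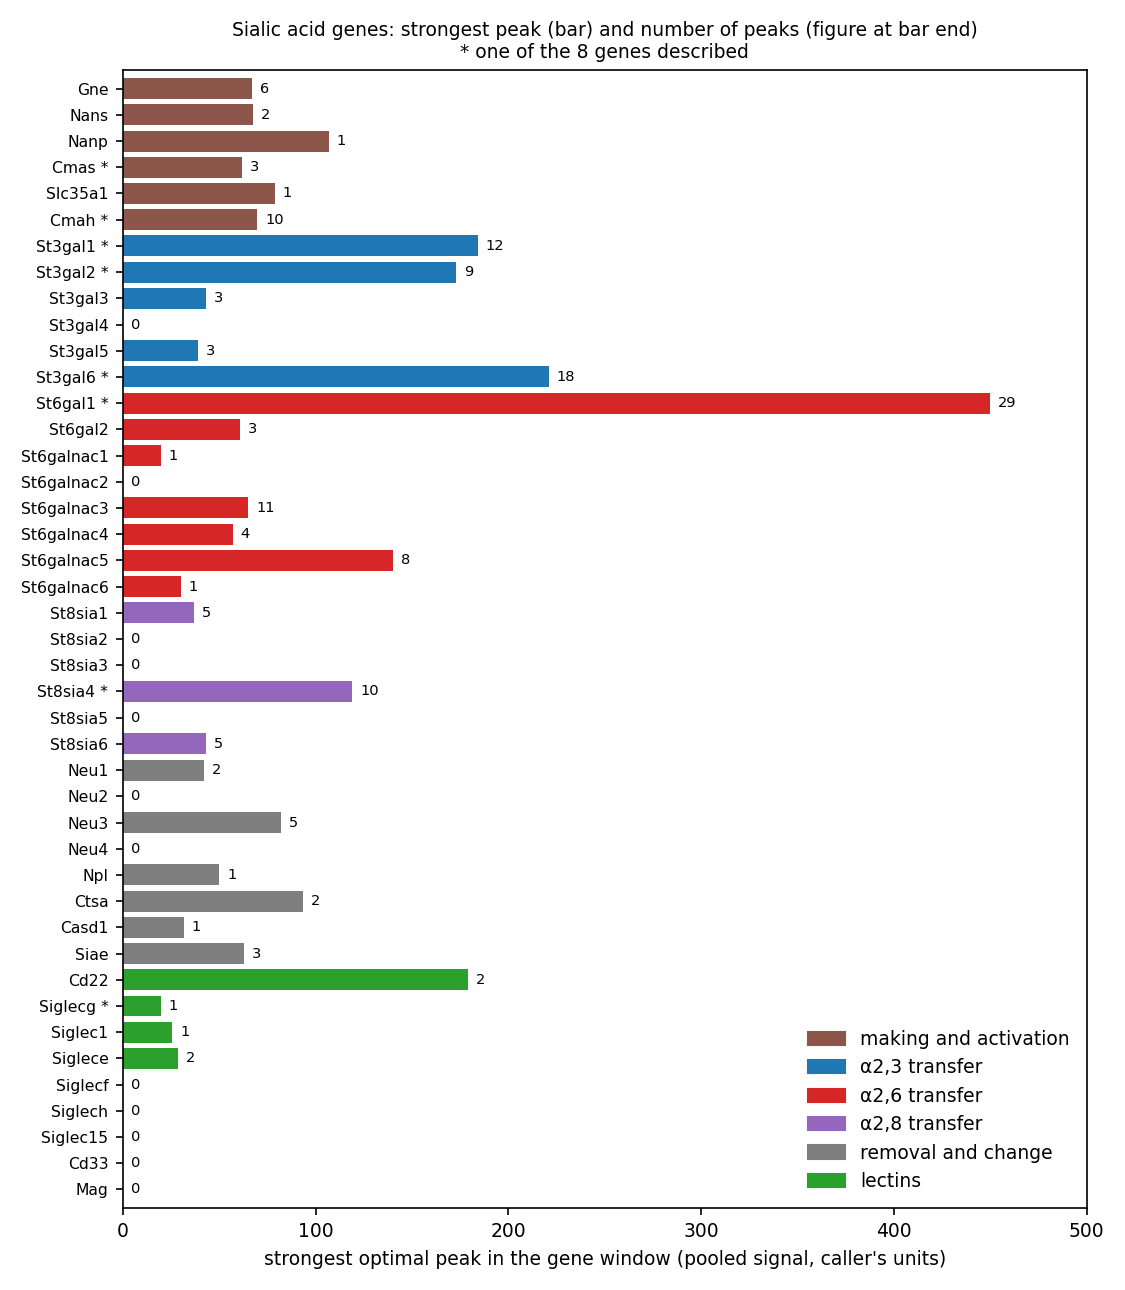
Strongest optimal peak in the window of each of 43 sialic acid genes (horizontal axis, pooled signal in caller's units, from 0), coloured by role, with the number of optimal peaks at the end of each bar and asterisks on the 8 genes. St6gal1 has the longest bar, 450 with 29 peaks, and 12 genes have none.

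In number of peaks, strongest signal and median signal together, the protein-coding genes outside that list most like St6gal1 were Ksr1 (32 peaks, strongest 329), Gas7 (20 peaks, 453), Rab37 (18 peaks, 473), Ninj2 (28 peaks, 326) and Grap (24 peaks, 311). Likeness was the Euclidean distance over the 3 log2 values, each divided by its SD over genes with a peak, and ran from 0.535 for Ksr1 to 0.794 for Grap. It rests on 1 pooled map. Ksr1 spans 133 kb, close to the 136 kb of St6gal1, whereas Grap spans 19.5 kb.

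**Figure D5:**
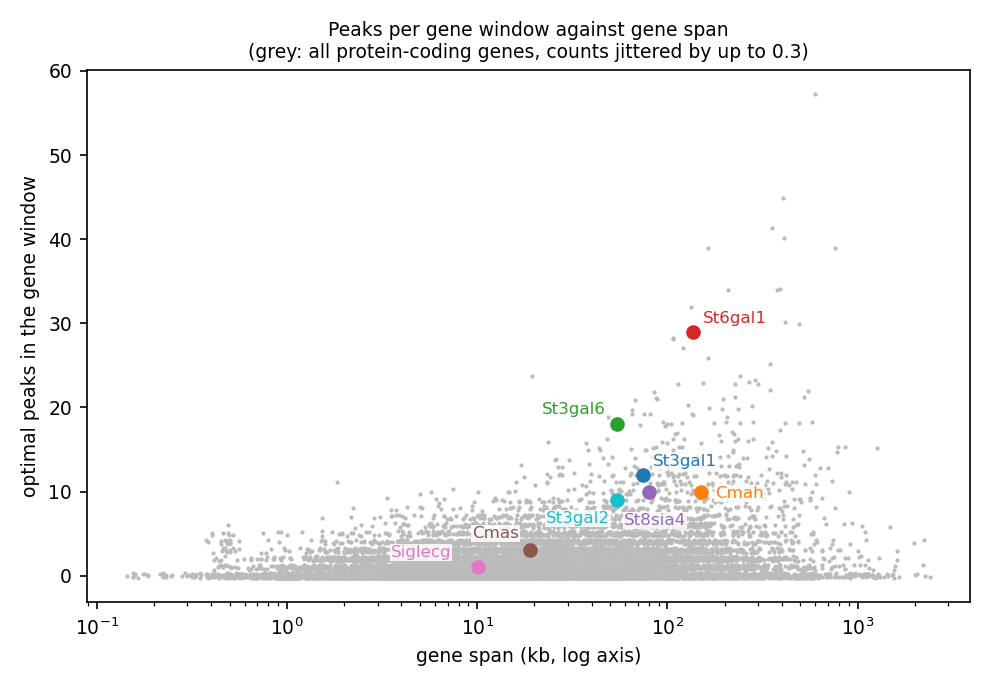
Number of optimal peaks in the gene window (vertical axis) against gene span (horizontal axis, kb, log axis), with the 8 genes as labelled points and all protein-coding genes in grey. St6gal1 (136 kb, 29 peaks) and St3gal6 (54.5 kb, 18 peaks) stand above most genes of their span, while Cmas and Siglecg lie within the grey mass. St3gal1, St3gal2, St8sia4 and Cmah, with 9 to 12 peaks, are also above the upper quartile of 2.00 peaks for genes spanning 10 to 150 kb.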

How the data were processed

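Peak lists of TCF12 ChIP-seq in 2 replicates of 1 group were used. Per the deposited descriptions, the authors called peaks per replicate and on the pooled data (300000 relaxed peaks in each list), and IDR then gave the optimal and conservative lists on mm10. A further list is on mm9. Neither aligner nor caller is given in the sources used here. The signal of a peak comes from the authors' caller with no stated scaling, and the score is the deposited scaled IDR score.

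Gene spans were those of RefSeq on GRCm38.p6, with strand from RefSeq promoters or GENCODE vM1 by symbol, for 20923 of 21631 protein-coding genes (96.7%). Peaks were matched to replicates by at least 1 bp of overlap, taking the replicates' own lists. Motifs were searched on both strands, wholly within 50 bp of the summit, on NCBIM37. No coordinate was converted between builds. Python 3.11.15, pandas 2.3.3 and scipy 1.17.1 were used, and window counts and motif searches were tested on simulated data.

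No test was run. The members, the lists and the motifs were chosen with earlier results of these data known. Named are the 8 genes, 6 other sialic acid genes with the strongest peaks and 6 without one, the 5 genes most like St6gal1 and genes that start within 1 kb of a peak.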

Additional observations from a re-analysis of the deposited data

How the results depend on the processing

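The 92 peaks became 54 with the mm9 list and annotation, which is shorter and covers only part of St3gal1. Under the other alternatives the count lay between 69, with an IDR of 0.01 or less, and 94, with windows reaching 20 kb upstream. Overlapping peaks counted once, an alternative chosen after seeing the data, gave 84. The strongest 35530 peaks of either replicate alone gave 87 and 93. Per-gene counts stayed within 1.5 times in 81 of 88 comparisons. Highest signals in 1 replicate alone were 196 to 250 for St6gal1, 71.3 to 115 for St3gal1, 71.2 to 98.6 for St3gal2, 83.6 to 140 for St3gal6, 51.5 to 85.5 for St8sia4, 29.7 to 40.3 for Cmah, 23.5 to 39.3 for Cmas and 13.8 to 14.0 for Siglecg, below the pooled values, which have their own scale. Windows reaching 20 kb upstream raised Siglecg to 116. The 22 peaks with CAGCTG or CACCTG became 12 within 25 bp of the summit (18.3% of all mm9 peaks), 36 over the whole peak (52.4% of all) and 28 within 100 bp (43.9% of all). Between 29 and 34 of the 43 sialic acid genes had a peak. No paired analysis was possible because there is 1 group and no contrast. A reciprocal overlap of 50%, also added later, left the median replicate ratio at 1.53. Unknown read depth leaves weak peaks near the IDR limit uncertain.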
